A study of Mus musculus with 30 samples.

Results

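Mouse embryonic stem cells (mESCs) of the E14tg2a line that had been kept for 20 passages (P20) in EMM were compared with cells kept for the same number of passages in 2i/LIF. The comparison uses 6 of the 30 RNA-seq libraries of the study, 3 for each medium, and all 16054 genes of 55487 that passed the filter on low counts. EMM (Enhanced Metabolic Media) is Serum/LIF medium in which D-galactose stands in for D-glucose and pyruvate. 2i/LIF is the medium that combines the cytokine LIF with inhibitors of MEK and GSK3. The study's methods name N2B27 as the base of 2i/LIF for its proteome cultures and do not restate it for the RNA-seq cultures. The media differ in more than their sugar, so the inhibitors, the sugar and the base medium cannot be told apart as sources of a difference. Every group comes from the 1 line, and the methods describe the replicates as biological replicates from independent experiments. Libraries of the same media after 10 passages (P10) and of Serum/LIF at P20 are given beside some results.

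LIF acts through STAT3 to keep mESCs self-renewing, whereas FGF signalling through MEK and ERK moves them towards lineage commitment. Inhibition of GSK3 stabilises β-catenin and relieves repression by TCF factors, which raises Wnt target genes. Cells in 2i/LIF are known for low ERK output, low levels of the de novo DNA methylation machinery and a naive, preimplantation-like state. Galactose enters glycolysis slowly through the Leloir pathway, so cells fed on it rely more on mitochondrial respiration.

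Total counts were between 16678618 and 27912928 in the P20 EMM libraries and between 6944904 and 21090048 in the P20 2i/LIF libraries. The shallowest library, P20 2i/LIF replicate 1, stood apart. In it 3.95% of counts fell on CT010467.1, a gene model known to collect ribosomal RNA reads, against 0.513% to 0.823% in the other 5 libraries, and 0.887% fell on the protein genes of the mitochondrial genome, against 2.17% to 2.60%. Where fewer members of a gene list were called without this library, that count is given as well. The 7 stem cell markers summed to between 50919 and 52019 normalized counts in EMM and between 54809 and 58273 in 2i/LIF, while sets of 6 to 8 primitive endoderm, trophectoderm, fibroblast and neural markers each summed to at most 324 in any of the 6 libraries. Genes of these lineages outside the marker sets could stand higher, as did Krt8 and Nes, with up to 1666 and 1219 in 2i/LIF. Normalized counts, used throughout as levels, are counts scaled to the mean effective library size of the 18 passage libraries, and values per library are listed in the order of the replicate numbers.

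The media differed in a large part of the transcriptome. A gene was called when its log2 difference (EMM minus 2i/LIF) was above 1 in size with an adjusted p under 0.01 in edgeR's quasi-likelihood test. At P20 2561 genes were called higher in EMM, 16.0% of those tested, and 1507 were called lower, 9.39%. In 4037 of these 4068 genes the 3 EMM libraries did not overlap the 3 2i/LIF libraries, but 65.0% of all tested genes were separated in this way. The median log2 difference over all genes was 0.02. Counts of list members at P20 given below are to be read against the 16.0% and 9.39% of all genes. No count was detected in any 2i/LIF library for 101 of the genes called higher, nor in any EMM library for 32 of those called lower. Without 2i/LIF replicate 1 the numbers were 2476 higher and 1464 lower.

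Chromosomes 6 and 8 carried a difference that ran across their genes. They were singled out because their genes are raised in these same 2i/LIF libraries, so the values are a description and no test of them is given. The median log2 difference was -0.34 over 746 genes of chromosome 6 and -0.29 over 833 genes of chromosome 8, whereas the medians of the other 18 chromosomes lay between -0.03 and 0.17. The mean of the P10 2i/LIF libraries served as a common reference. The median level of each chromosome in each library was set against it, over genes above 3 on the log2 CPM scale. On chromosome 8 the P20 2i/LIF libraries stood 0.36 to 0.37 above that reference and the P20 EMM libraries 0.03 to 0.11 above it. On chromosome 6 the P20 2i/LIF libraries stood 0.19 to 0.26 above it, and the EMM libraries lay at -0.09 to -0.08. The P10 EMM libraries lay at 0.02 to 0.06 on chromosome 8 and at -0.11 to -0.09 on chromosome 6, ranges that overlapped those of P20 EMM. The P20 2i/LIF libraries lay above the P20 EMM libraries on both chromosomes, without overlap. However, the P20 libraries of these media were separated, in either direction, on 10 of the 20 chromosomes.

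**Figure D1:**
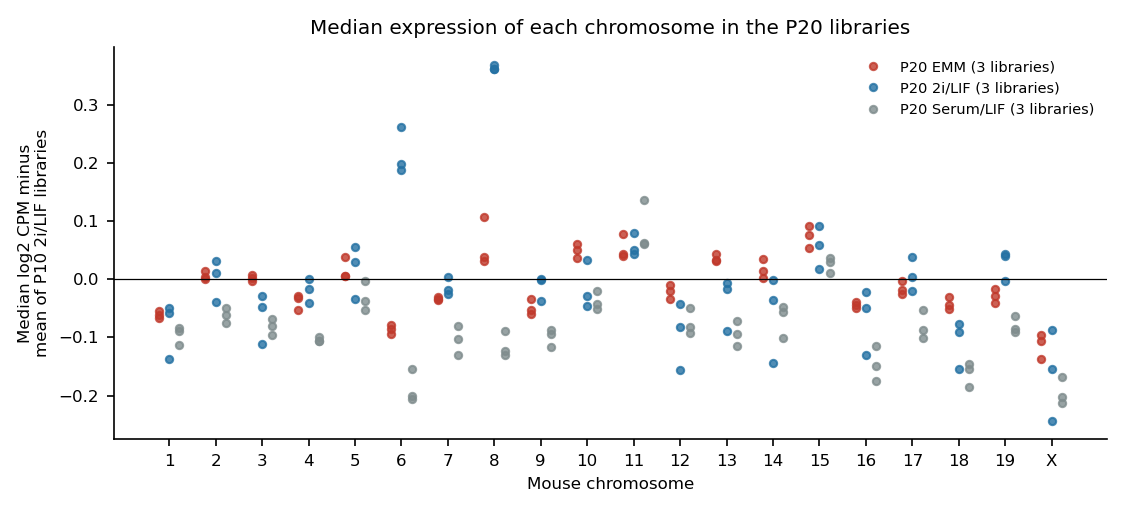
Median log2 CPM of the genes of each mouse chromosome in each P20 library, minus the mean of the P10 2i/LIF libraries (vertical axis), by chromosome (horizontal axis). Each point is 1 library. The 2i/LIF points for chromosome 8 (0.36 to 0.37) and chromosome 6 (0.19 to 0.26) lie above all EMM and Serum/LIF points of those chromosomes.

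The difference was spread along chromosome 8 and was uneven along chromosome 6. In windows of 20 Mb on chromosome 8, the median log2 difference lay between -0.44 and -0.26, and the EMM and 2i/LIF libraries overlapped only in the first window. On chromosome 6 it was -0.22 and -0.10 in the first 2 windows (0 to 40 Mb), where the libraries of the media overlapped, as they did between 40 and 80 Mb. It was -0.57 between 80 and 100 Mb and -0.71 between 120 and 140 Mb, where they did not. In these windows the EMM libraries lay below the P10 2i/LIF reference, at -0.22 to -0.20 and -0.31 to -0.29, while the 2i/LIF libraries stood 0.06 to 0.35 and 0.34 to 0.43 above it. Between 140 and 160 Mb the 2i/LIF libraries stood 0.35 to 0.47 above it and the EMM libraries 0.08 to 0.13. The difference there was -0.35. The P10 EMM libraries were not split into windows. Among chromosome 6 genes 95 were called higher and 124 lower in EMM (12.7% and 16.6%), among chromosome 8 genes 111 and 109 (13.3% and 13.1%), and among the other 14475 genes 2355 and 1274 (16.3% and 8.80%). When each library was given an offset for the genes of these chromosomes, the calls became 133 higher and 76 lower on chromosome 6 and 152 higher and 61 lower on chromosome 8. For members of these chromosomes named here, the log2 difference with the offset is given as well.

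The largest rises outside chromosomes 6 and 8 were in genes with no or almost no counts in 2i/LIF. Car4, a membrane-bound carbonic anhydrase, had 125, 149 and 131 normalized counts in EMM and 0 in all 3 2i/LIF libraries. This is at least 127-fold higher, taking 3 counts over the 2i/LIF group as the floor. On the same basis Fgf5, a growth factor of the postimplantation epiblast, was at least 114-fold higher (102, 113 and 149 in EMM), and Spink1, a trypsin inhibitor, was at least 92.7-fold higher. Cyp2j13, a cytochrome P450, was at least 49.8-fold higher and the leukotriene receptor gene Cysltr1 at least 47.9-fold. Slc23a1, a vitamin C transporter, rested on 1 count in 2i/LIF and 1443 counts in EMM, a ratio of 958 (95% counting interval 172 to 37823). Car14, a further carbonic anhydrase, also had 1 count in 2i/LIF and a ratio of 422 (75.7 to 16664). Duxbl2 and Gm8108, at least 99.5-fold and 75.2-fold higher, belong to families of near-identical copies, and their values are uncertain because reads can be shared between copies.

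The largest falls in EMM were led by genes of the X chromosome. Xlr4b, of a lymphocyte-regulated family with many copies, had 371, 242 and 331 normalized counts in 2i/LIF and 0 in every EMM library, at least 445-fold lower. Xlr4a was at least 285-fold lower and Xlr5c at least 102-fold, and Xlr5a fell to 2 counts in EMM from 815 in 2i/LIF, a ratio of 599.7 (166 to 4952). The X chromosome held 590 of the 16054 genes tested and 92 of the 1507 called lower. The 25 largest falls were taken over all chromosomes, with no overlap of libraries and at least 50 normalized counts on average in 1 medium. Of these, 14 lay on the X chromosome. This led to a further list, the Xlr and Rhox genes (Rhox genes are reproductive homeobox genes), which was chosen after its values were seen. Of its 41 members 20 were tested, 18 were called lower in EMM and 1, Rhox9 (1.42 ± 0.27, SE), was called higher. The median was -7.07, or -5.25 with the 6 genes that had no counts in 1 medium set at their bound, and reads shared between the copies make the values of single members uncertain. At P10 16 of the 20 were called lower and none higher, against 11.0% of all genes in each direction. Over the 590 genes of the X chromosome the median was 0.03, with 105 called higher and 92 lower.

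Other genes among the largest falls lay elsewhere or outside these families. Pkd2l1, an ion channel subunit, had 1196, 1101 and 976 normalized counts in 2i/LIF and 0, 0 and 3.63 in EMM. Nkx1-2, a homeobox gene, had 945, 921 and 742 in 2i/LIF against 2.79, 1.68 and 1.45 in EMM, a log2 difference of -8.75 ± 0.34 (SE). Cd180, a Toll-like receptor homologue, fell from 139, 153 and 192 to 0, at least 228-fold lower. Srarp, AV320801, DXBay18 and Gm5128 also had no count in EMM and were at least 85.9-fold lower. DXBay18 overlaps Xlr5a and Xlr5b, so its counts may rest on reads shared with them. Gm49089 varied within 2i/LIF, with 500.5, 385 and 1659. No overlap between the libraries of the media was a condition for choosing these genes. The Wald test of DESeq2 did not call Gm5128 (adjusted p = 0.127, against 1.18e-03 in edgeR).

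On chromosomes 6 and 8, the largest changes exceeded the shift of the chromosomes many times over. Trim67, a ubiquitin ligase gene of chromosome 8, had 252, 295 and 292 normalized counts in EMM and 0, 1.48 and 0.958 in 2i/LIF, a ratio of 263 (95% counting interval 90.0 to 1275) and a fitted log2 difference of 7.89 (8.17 with the offset). Calcr, the calcitonin receptor gene, had 67.0, 77.2 and 68.9 against 1 count in 2i/LIF, a ratio of 201 (36.0 to 7919.8; 7.48 on the log2 scale with the offset), and Lrrn1, a leucine-rich repeat protein gene, had a ratio of 98.2 (33.6 to 476; 6.80 with the offset). Bhlhe41, a circadian repressor, rose by 6.77 ± 0.46 on the log2 scale (7.13 with the offset). M1ap, a meiosis gene, had 15.8, 11.2 and 12.3 in EMM and 970.4, 1067 and 926 in 2i/LIF, a log2 difference of -6.26 ± 0.17 (-5.88 with the offset). Snx20, a sorting nexin gene, and Calb2, which encodes calretinin, had log2 differences of -7.14 and -6.17 (-6.81 and -5.84 with the offset). Clec4a1, a lectin receptor gene, had 1 count in EMM and 21.1, 37.7 and 117 in 2i/LIF, a ratio of 248 (44.6 to 9810.3; -7.08 with the offset).

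Most ERK output genes rose in EMM. Of 18 genes that ERK signalling induces, 14 were called higher and none lower, against 16.0% and 9.39% of all genes, with a median of 1.74 against 0.02. Spry4, a feedback inhibitor of receptor tyrosine kinase signalling, had 4925, 4752 and 4848 normalized counts in EMM and 143, 166 and 176 in 2i/LIF. Dusp6, an ERK phosphatase, had 1769, 1817 and 1711 against 129, 161 and 94.8. The media did not overlap for either gene, and the log2 differences were 4.88 ± 0.13 (SE, adjusted p = 6.06e-15) and 3.77 ± 0.12 (3.35e-14) in edgeR. Dusp4, another ERK phosphatase, rose by 6.23 (6.55 with the chromosome 8 offset), and Egr1, an immediate early transcription factor, by 6.17. In Serum/LIF at P20 Spry4 averaged 2229, Dusp6 1003 and Dusp4 699, between the levels of the other media. Without 2i/LIF replicate 1, 13 of the 18 were called higher.

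**Figure D2:**
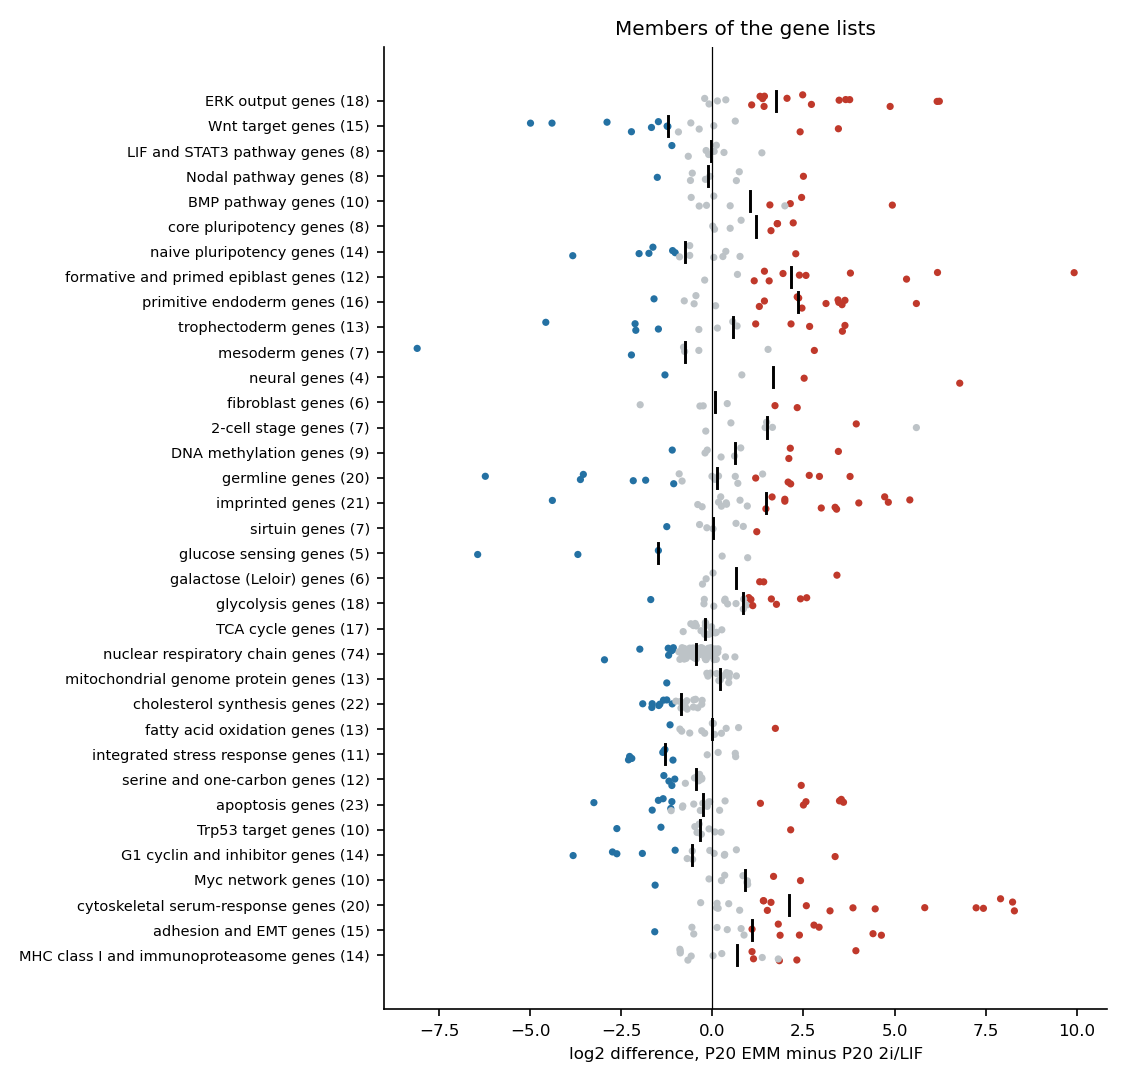
log2 difference between P20 EMM and P20 2i/LIF (horizontal axis) of each tested member of the 35 gene lists (rows, with the number of members tested). Each point is 1 gene, red where called higher in EMM, blue where called lower and grey otherwise, and the black bar is the median of the list. The ERK output, formative and primed epiblast, primitive endoderm and cytoskeletal lists are among those with medians above 1.5, and the integrated stress response and glucose sensing lists have medians of -1.30 and -1.48.

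Wnt target genes lay mostly on the other side, although 2 rose. Of 15 tested, 8 were called lower in EMM and 2 higher, with a median of -1.22. Axin2, a negative feedback regulator of β-catenin, had 197, 219 and 176 normalized counts in EMM and 1238, 1578 and 1569 in 2i/LIF, a log2 difference of -2.89 ± 0.19. Sp5, a zinc finger target of Wnt, had 22.3, 12.3 and 10.9 against 482, 430.0 and 492 (-4.99 ± 0.36), Cdx1 stood at -4.40 and T (Brachyury) at -2.22. Lef1, which encodes a transcription factor of the pathway, went the other way, with 366, 415 and 453 in EMM and 32.9, 42.9 and 33.5 in 2i/LIF (3.46 ± 0.17). Nkd2, an inhibitor of the pathway, rose by 2.41. At P10 the median of the list was -2.78, with 12 called lower and 1 higher.

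Other signalling lists were mixed. Of 10 BMP pathway genes 4 were called higher and none lower (median 1.04). Id2 and Id1, inhibitors of helix-loop-helix factors that BMP induces, rose by 4.94 ± 0.24 and 2.45 ± 0.19, and Dusp9, an ERK phosphatase that BMP also induces, rose by 2.14. The Nodal list gave 1 call each way of 8, against 16.0% higher and 9.39% lower among all genes. Lefty1 rose, with 1133, 1240.5 and 1309 normalized counts in EMM against 193, 293 and 152 in 2i/LIF (2.50 ± 0.20), while its neighbour Lefty2, a similar Nodal antagonist, fell, with 861, 881 and 984 against 2690.3, 2886 and 2167 (-1.51 ± 0.15). Of 8 LIF and STAT3 pathway genes, only Bcl3 was called (-1.11, and -0.99 without 2i/LIF replicate 2), and the median was -0.03.

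The core pluripotency genes were either not called or called higher in EMM. Pou5f1 (Oct4) had 17690.2, 18022 and 18107 normalized counts in EMM and 18808, 17227 and 17469 in 2i/LIF, so that the media overlapped, and the log2 difference was 0.01 ± 0.09 (adjusted p = 0.942 in edgeR). Sox2 was at 0.79 ± 0.07, short of the fold threshold but without overlap (6029, 5965 and 6216 against 3193, 3875 and 3419). Of 8 core genes 4 were called higher in EMM and none lower. The largest of these were Dppa2, a chromatin regulator of early development, at 2.22 and Lin28a, an RNA-binding protein that blocks let-7 maturation, at 1.79.

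The naive and the postimplantation-type genes had medians of opposite sign at P20. Of 14 naive genes 6 were called lower and 1 higher in EMM, with a median of -0.76. Prdm14, a repressor of ERK signalling and DNA methylation genes, had 149.8, 148 and 135 normalized counts in EMM and 564, 579 and 599 in 2i/LIF (-2.01 ± 0.13). Nanog had 3628, 3526 and 3380.2 against 9259.7, 10526 and 12697 (-1.63 ± 0.11, -1.25 with the chromosome 6 offset), and its Serum/LIF mean was 7589.9. Tfcp2l1, a target of LIF, was at -1.74, and Dppa3 (Stella), also on chromosome 6, at -3.83 (-3.47 with the offset). Klf4 and Tbx3, named after their values were seen, were at -1.09 and -1.02 and lost the call in some alternatives. Nr0b1 (Dax1) was the member that rose (2.29 ± 0.11). At P10 the naive list had a median of 0.32, with 1 member called higher and 2 lower, against 11.0% of all genes in each direction.

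Of 12 formative and primed epiblast genes, 10 were called higher in EMM and none lower, with a median of 2.16. Beside Fgf5, Pou3f1 (Oct6), a POU factor of the epiblast, had 374, 407 and 469 normalized counts in EMM and 2.35, 6.65 and 5.75 in 2i/LIF (6.18 ± 0.19). Fgf15 rose by 5.33 and Otx2, named after its value was seen, by 1.56. Serum/LIF cells had means of 416 for Pou3f1 and 40.5 for Fgf5. At P10 the same list had 5 members called higher and 3 lower, and the difference between passages was called upward for 9 of the 12, against 10.2% of all genes.

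Genes of extraembryonic and embryonic lineages ranged from no detected counts to levels like those of Sox2. Of 16 primitive endoderm genes tested, 11 were called higher in EMM and 1 lower (median 2.35). Lrp2, an endocytic receptor of the visceral endoderm, had 1651, 1888 and 1625 normalized counts against 129, 133 and 148 (3.64 ± 0.19), and its partner Cubn had 67.0, 107 and 104 against 4.70, 2.22 and 0 (5.60 ± 0.66). Col4a2, a basement membrane collagen, rose by 3.56 (3.88 with the chromosome 8 offset), and Sparc, a matrix protein, fell, with a log2 difference of -1.60. The summed level of the 6 primitive endoderm markers Gata6, Gata4, Sox17, Sox7, Pdgfra and Foxa2 ran from 130.2 to 210.4 in EMM and from 65.8 to 67.1 in 2i/LIF, and none of the 6 was at or below 3 counts in all libraries. Whether a few differentiating cells or a low level in all cells gave these values cannot be told apart in bulk RNA, and neither can fewer cells of a type and less RNA per cell.

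The trophectoderm list gave 5 genes called higher (4 without 2i/LIF replicate 1) and 4 lower of 13. Ascl2, an imprinted factor of the trophoblast, rose by 3.64, whereas Tfap2a had 15.8, 17.9 and 13.1 normalized counts in EMM and 345, 417 and 359 in 2i/LIF (-4.57 ± 0.21), Krt8, a keratin gene, was at -2.12 and Tead4 at -2.10 (-1.73 with the chromosome 6 offset). Of 7 mesoderm genes tested 1 was called higher and 2 lower, against 16.0% and 9.39% of all genes. Fgf8, a growth factor of the primitive streak, rose by 2.80 at low levels (14, 11.8 and 7.98 against 7.05, 0 and 0.958) and lost the call without any one of 2i/LIF replicates 2 and 3 and EMM replicates 1 and 2. Beside T, Gsc (goosecoid) fell, with 86.9, 82.8 and 125 in 2i/LIF and 1 count in the 3 EMM libraries together, a ratio of 416 (74.7 to 16428). Of 4 neural genes tested Pax6 and Neurod1, transcription factors of neural progenitors and neurons, were called higher. Pax6 had 107, 84.5 and 85.6 in EMM and 0, 0 and 1.92 in 2i/LIF, a ratio of 130.3 (36.1 to 1076), and Neurod1 rose by 2.52. Nes (nestin) was called lower, at -1.30. The neural markers Neurog2 and Olig2 had at most 3 counts in each of the 6 libraries. Of 6 fibroblast genes 2 were called higher, Thy1 (1.72 ± 0.25) and the collagen gene Col3a1 (2.33 ± 0.63). Col3a1 had 5 counts in the 3 2i/LIF libraries together and 39 in EMM, and it lost the call without any one of the 2i/LIF libraries or EMM replicate 1, so that 1 gene was left without 2i/LIF replicate 1. The fibroblast markers summed to 193 to 230.0 in EMM and 122 to 124 in 2i/LIF. Of 7 2-cell stage genes 1 was called higher and none lower (median 1.49), against 16.0% and 9.39% of all genes. Without 2i/LIF replicate 1 none was called. At P10 6 of the 7 were called lower in EMM and none higher, with a median of -3.70. The difference between passages was called upward for 6, against 10.2% of all genes.

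The de novo DNA methylation genes were higher in EMM. Dnmt3a, a de novo methyltransferase, had 2733, 3091 and 2982 normalized counts in EMM and 261, 298 and 239 in 2i/LIF (3.46 ± 0.17, adjusted p = 5.23e-12 in edgeR). Dnmt3b, the other de novo enzyme, rose by 2.10 ± 0.13, and Dnmt3l, their cofactor, by 2.14 ± 0.28. Uhrf1, which recruits the maintenance methyltransferase to DNA, had 6441, 6255 and 5947 against 11891, 14150.1 and 14032 (-1.10 ± 0.08). In all 4 the media did not overlap, and Serum/LIF averaged 2359 for Dnmt3a and 5882 for Uhrf1, near the EMM levels. No other of the 9 genes tested was called.

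Germline genes, many of which are held silent by promoter methylation in somatic cells, split evenly. Of 20 tested 6 were called higher and 6 lower in EMM (5 lower without 2i/LIF replicate 1), with a median of 0.12. Dazl, an RNA-binding protein of germ cells, had 80.0, 86.2 and 84.1 normalized counts in EMM and 778, 674 and 1451 in 2i/LIF (-3.54 ± 0.30). Asz1, of the piRNA pathway, on chromosome 6, had 1 count in EMM and 76 in 2i/LIF, a ratio of 116 (20.7 to 4565; -5.89 on the log2 scale with the offset), and Dpep3, a dipeptidase of the testis, was at -3.62 (chromosome 8; -3.30 with the offset). Sycp3, of the synaptonemal complex, moved the other way, with 776, 816 and 971 in EMM and 129, 87.9 and 125 in 2i/LIF (2.94 ± 0.17), as did the piRNA pathway genes Mael (2.66) and Tdrd1 (3.78). The promoters of one member that fell and one that rose are printed to show the CpG sites on which such methylation acts. They are RefSeq windows of GRCm38.p6 running from 250 bases before to 50 bases after the start, read on the strand of the gene, with each CG in capitals. Dazl lies at chr17:50293571-50293870 (minus strand, 28 CG) and Mael at chr1:166238695-166238994 (minus strand, 24 CG).
Dazl: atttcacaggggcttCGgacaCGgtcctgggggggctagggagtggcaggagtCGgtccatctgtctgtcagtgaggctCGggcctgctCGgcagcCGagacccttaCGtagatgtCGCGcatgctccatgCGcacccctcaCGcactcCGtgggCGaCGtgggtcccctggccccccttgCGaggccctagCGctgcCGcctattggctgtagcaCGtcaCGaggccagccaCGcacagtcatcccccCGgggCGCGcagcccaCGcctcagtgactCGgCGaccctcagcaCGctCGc
Mael: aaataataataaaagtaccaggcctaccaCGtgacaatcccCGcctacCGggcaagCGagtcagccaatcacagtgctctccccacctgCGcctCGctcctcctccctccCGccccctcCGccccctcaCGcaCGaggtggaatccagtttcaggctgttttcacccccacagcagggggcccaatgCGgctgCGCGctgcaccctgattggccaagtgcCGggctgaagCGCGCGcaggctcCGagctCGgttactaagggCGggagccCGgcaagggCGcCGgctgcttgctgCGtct
The windows of the 6 germline genes that rose held 10 to 38 CG (median 22), those of the 6 that fell 12 to 29 (median 15.5) and those of the 7 uncalled genes with a window 17 to 30 (median 22), while the median over 27025 genes was 7. Methylation itself was not measured in these libraries.

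Imprinted genes were higher in EMM in 11 of 21 cases and lower in 1 (median 1.47). H19, a maternally expressed noncoding RNA, had 109.8, 90.1 and 90.7 normalized counts in EMM and 0, 0 and 5.75 in 2i/LIF (5.42 ± 0.53), and its neighbour Igf2, a growth factor expressed from the paternal copy, rose by 4.73 ± 0.59. Dlk1, a paternally expressed Notch ligand-like protein, rose by 4.83. Plagl1 (Zac1), a zinc finger factor, was the member that fell, from 1722, 1646 and 1560.4 in 2i/LIF to 66.0, 82.8 and 83.4 in EMM (-4.39 ± 0.16). Serum/LIF cells had far more H19 (mean 1482) and Igf2 (mean 2333) than either medium. The counts do not separate the parental copies.

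**Figure D3:**
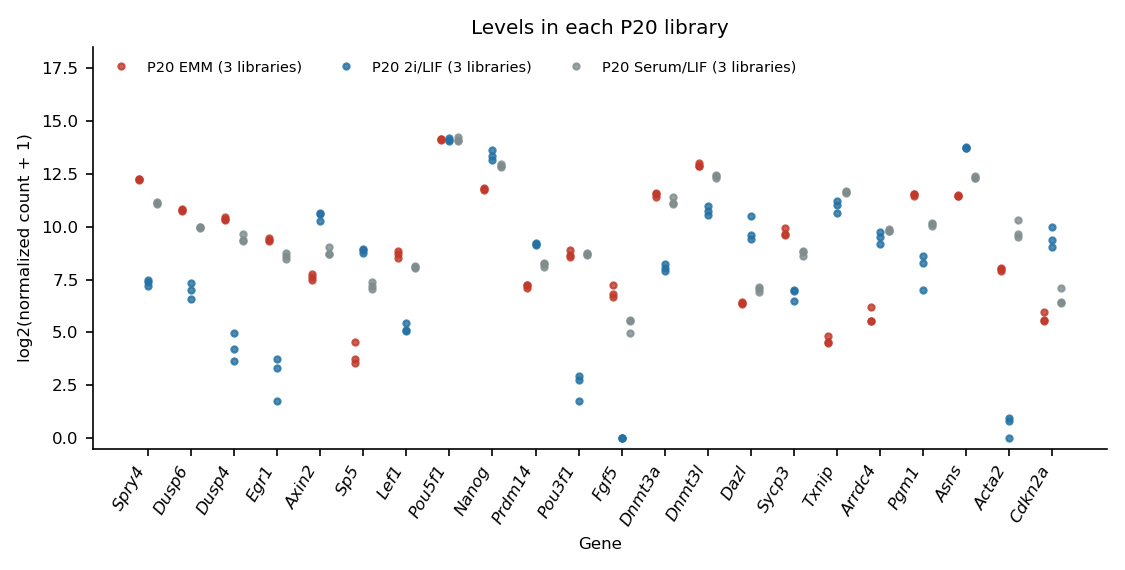
Levels of 22 genes, as log2 of the normalized count plus 1 (vertical axis), in each P20 library of EMM, 2i/LIF and Serum/LIF. Each point is 1 library. The EMM and 2i/LIF points overlap for Pou5f1 and are apart for the other genes, and for Txnip and Arrdc4 the EMM points lie below those of both other media.

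Of all members of the metabolic lists, Txnip had the largest difference. Txnip, an arrestin-like protein that limits glucose uptake and is induced by the sugar-responsive factors MondoA (Mlxip) and ChREBP (Mlxipl), had 27.0, 21.3 and 22.5 normalized counts in EMM and 2086, 2388 and 1599 in 2i/LIF. The log2 difference was -6.44 ± 0.20 (adjusted p = 2.85e-14 in edgeR). Its relative Arrdc4 had 44.7, 72.7 and 45.7 against 862, 733 and 578 (-3.69 ± 0.18). Serum/LIF cells, which have glucose, had means of 3223 for Txnip and 905 for Arrdc4, so EMM was the lowest of the 3 media for both. Mlxipl itself was called lower (-1.48 ± 0.22), and the remaining 2 of 5 genes were not called. The promoter of Txnip is printed because it holds the paired words CACGNG, spaced by 5 bases, of the kind that carbohydrate response elements are made of. It is the RefSeq window chr3:96557707-96558006 (GRCm38.p6, plus strand), with the 2 words in capitals, 85 and 74 bases before the start.
Txnip: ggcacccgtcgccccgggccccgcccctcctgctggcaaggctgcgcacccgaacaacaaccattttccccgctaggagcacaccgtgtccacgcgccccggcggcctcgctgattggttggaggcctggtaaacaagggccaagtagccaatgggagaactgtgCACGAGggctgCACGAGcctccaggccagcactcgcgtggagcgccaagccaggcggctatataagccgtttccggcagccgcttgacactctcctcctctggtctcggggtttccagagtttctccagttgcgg
Such a pair, searched on both strands (CACGNG or CNCGTG), was present in 27 of 32851 promoter windows of 300 bases (0.0822%). The window of Arrdc4 held 1 such word and no pair.

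Galactose and glycolysis genes rose in part. Of 6 Leloir pathway genes 3 were called higher. Pgm1 (phosphoglucomutase), which turns glucose 1-phosphate into glucose 6-phosphate, had 3023, 2812 and 2989 normalized counts in EMM and 312, 386 and 127 in 2i/LIF (3.42 ± 0.26). Galk1, the galactokinase, rose by 1.41 ± 0.13 and Galm, which converts the sugar into the form Galk1 uses, by 1.30 ± 0.10. Serum/LIF cells at P20 averaged 1636 for Galk1, against means of 1882 in EMM and 719 in 2i/LIF. They averaged 235 for Galm (EMM 445, 2i/LIF 179.5) and 1107 for Pgm1 (EMM 2941, 2i/LIF 275). Of 18 glycolysis genes 7 were called higher and 1 lower (median 0.85). Slc16a3, a lactate exporter, rose by 2.59, Pfkl, the liver-type phosphofructokinase, by 2.42 and Pgk1 by 1.76, whereas the hexokinase gene Hk1 fell from 3534, 3618 and 3167 to 1066, 1058 and 1082 (-1.69 ± 0.09). Of 7 genes of the sirtuins, NAD-dependent deacylases, 1 was called higher, Sirt5 (1.22), and 1 lower, Sirt4 (-1.25). Over all genes the shares were 16.0% and 9.39%, and the median of the list was 0.02. Sirt1 was at 0.85 ± 0.07 and below the fold threshold.

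The mitochondrial lists differed less. None of 17 TCA cycle genes was called in edgeR at these thresholds (median -0.19, all between -0.80 and 0.26). Of 74 nuclear genes of the respiratory chain 7 were called lower, a share close to the 9.39% of all genes, and none higher. Their median was -0.43, against 0.02 for all genes and 0.21 for the list at P10. Cox7a1, a subunit of cytochrome c oxidase, was at -1.99 ± 0.25. Ndufb7, of complex I, had 787, 791 and 762 in EMM against 2979, 1261 and 1264 in 2i/LIF, a difference of -1.21. It was not called without replicate 1 (-0.70), nor with the chromosome 8 offset (-0.88). Of the 74 genes 3 were called lower without that library and 6 with the offset. The 13 protein genes of the mitochondrial genome had a median of 0.22, which became -0.16 without 2i/LIF replicate 1, and 1 member, mt-Nd6, was called lower (-1.25, and -0.65 without that library). It overlaps mt-Nd5 on the opposite strand.

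Part of the cholesterol synthesis and stress response genes fell in EMM. Of 22 cholesterol synthesis genes, 8 were called lower and none higher, all 22 values were negative and the median was -0.85. Ebp, a sterol isomerase, had 162, 166 and 163 normalized counts in EMM and 684, 618 and 549 in 2i/LIF (-1.91 ± 0.13), Dhcr7, of the last steps, was at -1.66 and Msmo1 at -1.65 (-1.32 with the chromosome 8 offset). Of 11 genes of the integrated stress response 7 were called lower and none higher (median -1.30, -1.08 with the offset). Asns, asparagine synthetase, had 2836, 2818 and 2883 in EMM and 13526, 13649 and 14092 in 2i/LIF (-2.27 ± 0.08, -1.89 with the chromosome 6 offset). Atf3 was at -2.21, and the cystine transporter gene Slc7a11 was at -2.30 with few counts. Of 12 serine and one-carbon genes 4 were called lower and 1 higher, the former including Psat1 (-1.33), of serine synthesis, and Amt (-1.19), of glycine cleavage, while the member that rose was Gldc, the glycine decarboxylase, which went from 1325, 1863 and 1101 to 7630.2, 7901 and 7831 (2.44 ± 0.14).

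Cell death and cell cycle genes changed in both directions. Of 23 apoptosis genes 6 were called higher and 6 lower. Pmaip1 (Noxa) and Bik, which promote death, and Bcl2, which opposes it, rose by 3.60 ± 0.18, 3.54 ± 0.41 and 3.49 ± 0.41. Tnfrsf1a, the TNF receptor, had 56.7, 28.5 and 29.7 normalized counts in EMM and 357, 384 and 323 in 2i/LIF (-3.25, -2.87 with the chromosome 6 offset), and Bid was at -1.65 (-1.27 with the offset). The cyclin-dependent kinase inhibitor gene Cdkn1a (p21) fell from 2491, 2853 and 2738 to 436, 439 and 444 (-2.62 ± 0.09) and Cdkn2a from 1008, 661 and 527 to 46.5, 45.9 and 60.9 (-3.82 ± 0.28), whereas the imprinted inhibitor Cdkn1c rose by 3.37 ± 0.14. Ccnd1 (cyclin D1), also a Wnt target, was at -2.74 ± 0.09. Of 14 genes in that list 5 were called lower and 1 higher. Of the 10 p53 (Trp53) target genes 1, Perp, was called higher (2.15) and 2 lower, including Cdkn1a. Over all genes the shares were 16.0% and 9.39%. Myc rose from 146, 188 and 176 to 924, 917 and 948 (2.42 ± 0.14) and its relative Mycl was at -1.57.

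Genes that respond to serum through SRF or YAP, among them genes of the contractile cytoskeleton, caveolins and matricellular proteins, rose for the most part in EMM. Of 20 tested 14 were called higher and none lower, with a median of 2.10, or 1.56 with the 2 genes absent from 2i/LIF at their bound. Acta2, smooth muscle actin, had 254, 260.2 and 238 normalized counts in EMM and 0, 0.739 and 0.958 in 2i/LIF, a ratio of 354 (97.9 to 2922). Myl9, a myosin light chain, had 139, 161 and 152 against 2.35, 0 and 0, a ratio of 425 (76.2 to 16774), and Tagln (transgelin) had 339.6, 386 and 397 against 7.05, 0.739 and 0. Serum/LIF cells had more Acta2 (mean 931) and Tagln (mean 1121) than EMM cells, and fewer counts of Myl9 (87.1). Of 15 adhesion and EMT genes 8 were called higher (6 without 2i/LIF replicate 1) and 1 lower. Cdh1 (E-cadherin) fell from 15253, 15736 and 17092 to 5646, 5332 and 5074 (-1.58 ± 0.07, -1.26 with the chromosome 8 offset), Cdh2 (N-cadherin), named after its value was seen, rose by 2.39 ± 0.23, Zeb2, a repressor of E-cadherin, rose by 2.93, and Esrp1, an epithelial splicing factor, rose by 4.64 ± 0.28. Of 14 genes of antigen presentation 5 were called higher and none lower, against 16.0% and 9.39% of all genes. The immunoproteasome gene Psmb8 had 3 counts in 2i/LIF and 76 in EMM, a ratio of 17.2 (5.88 to 83.3). The peptide transporter gene Tap1 rose by 1.84.

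The same media were also compared after 10 passages, in libraries that the P20 comparison does not share. There 1771 genes were called higher (11.0%) and 1773 lower (11.0%) in EMM. Of the genes called higher at P20, 46.0% were also called higher at P10 (1178 genes, 66.5% of those at P10), and of those called lower at P20, 53.0% were called lower at P10 (798 genes, 45.0% of those at P10). A test of the difference between the passages called 2654 genes (16.5%), of which 1643 changed towards higher (10.2%) and 1011 towards lower (6.30%) in EMM. Passage and any batch of culture or library preparation cannot be told apart. Called at both passages in opposite directions were 113 genes, 85 of them higher at P20 and 28 lower. Egr1 had P10 means of 1079.7 normalized counts in EMM and 3691 in 2i/LIF, and the 2i/LIF level at P20 was 2.35, 8.87 and 12.5. Lef1 had P10 means of 79.0 in EMM and 348 in 2i/LIF, against the reverse order at P20. Txnip (-4.93 at P10), Spry4 (6.82), Prdm14 (-2.06) and Dnmt3b (0.99) kept their direction.

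**Figure D4:**
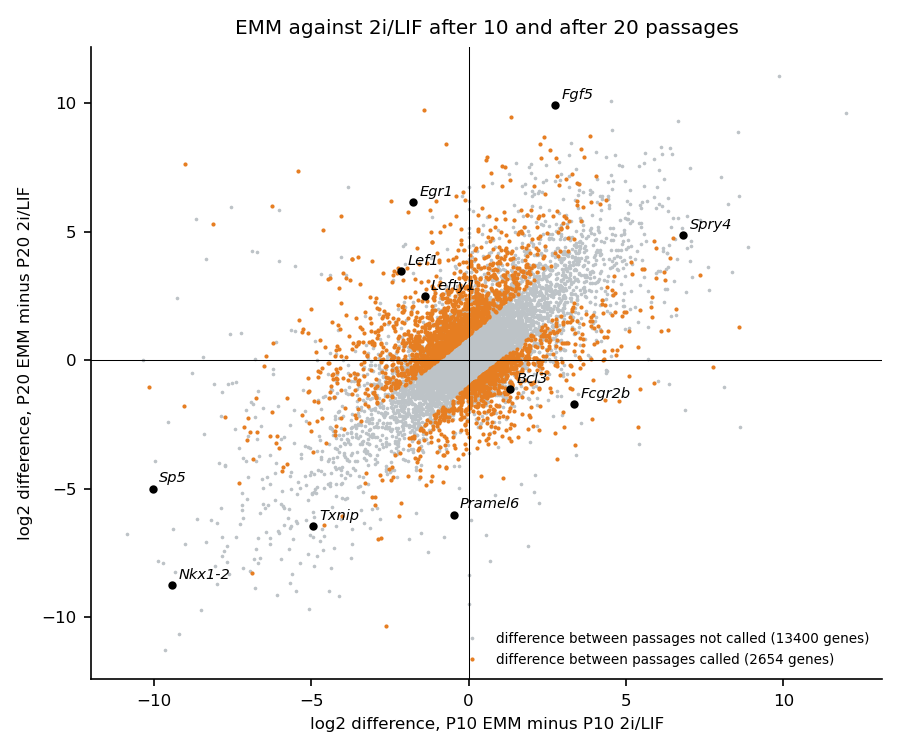
log2 difference between EMM and 2i/LIF at P20 (vertical axis) against that at P10 (horizontal axis) for the 16054 genes tested. Each point is 1 gene, orange where the difference between the passages was called (2654 genes) and grey otherwise, with 11 genes named. Egr1, Lef1 and Lefty1 lie in the upper left, lower in EMM at P10 and higher at P20.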

How the data were processed

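RNA was sequenced from 18 libraries of E14tg2a mESCs (3 media, 2 passages, 3 libraries each) prepared with a directional kit. The passage table holds estimated counts, deposited by the authors as gene totals with no scaling. The notes sent in with the data name STAR, Salmon, DESeq2 and mm10, whereas HTSeq is the counter in the published methods, and the annotation is not given in the sources used here. Fractional values (9.982%) were rounded to whole counts.

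Genes passing filterByExpr were scaled with TMM and fitted over all 6 groups with edgeR 4.0.16 (quasi-likelihood, R 4.3.3), with Benjamini-Hochberg adjustment over 16054 genes. Errors are standard errors (SE) of that fit, and its p-values measure the spread between these libraries. Positions came from GENCODE M21 (GRCm38), matched by Ensembl identifier for 55227 genes. Intervals (95%, exact Poisson) and floors (3 counts over a group) cover counting error only. The procedure was tested on simulated counts.

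The comparison and the gene lists were chosen with earlier results of these data known. Named genes are the 12 largest rises and falls (4 each on chromosomes 6 and 8) with at least 50 normalized counts on average in 1 medium and no overlap of libraries, up to 3 called members of each of 35 lists in each direction, 14 set genes and the 6 largest changes in each direction between passages. Alternatives were other scalings (DESeq2 size factors, library totals, TMM without chromosomes 6 and 8, an offset for them), other filters and thresholds, DESeq2 1.42.0, only the groups compared, a replicate block and each library left out. List counts without 2i/LIF replicate 1 and the Xlr and Rhox list were added after seeing the data. Some genes taken by this rule are not reported here. The time-course libraries were not used here.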

Additional observations from a re-analysis of the deposited data

Results flagged for a closer look

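The EMM against 2i/LIF difference was tested for a change between P10 and P20, and 2654 genes changed by this test. Each passage has its own libraries, so passage and any batch of culture or library preparation cannot be told apart. The values below are the P20 log2 difference minus the P10 log2 difference, from the edgeR fit. Where a group had no count (Duxbl2, Akap6, Gcat and Cd180), the fitted value depends on the prior count and gives no size, so the genes are not ranked by it.

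Among the genes called upward outside chromosomes 6 and 8, with at least 50 normalized counts on average in 1 group, fitted changes were 11.15 for Duxbl2, 9.70 for Kcna2 (a potassium channel gene), 9.12 for Akap6 (a kinase anchor protein gene), 8.12 for Slc23a1 and 7.93 for Egr1. Duxbl2 varied widely in 2i/LIF at P10 (mean 47, SD 70.8) and was not called there (-1.42), and it has near-identical copies. Kcna2 had P10 means of 4.20 normalized counts in EMM and 117 in 2i/LIF, and at P20 20.5, 28.0 and 33.4 in EMM against 0, 1.48 and 0 in 2i/LIF. Akap6 was not called at P20 (-1.05), and its change came from P10, where it had no count in EMM and a mean of 144 in 2i/LIF. For a second identifier of Gcat, a glycine synthesis gene, the fitted change was 16.65, but its counts varied within groups (55.8, 21.3 and 0 in P20 EMM), it overlaps the other Gcat identifier and it was called at neither passage.

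Among those called downward, fitted changes were -7.70 for Cd180, -5.68 for Gm28439, -5.64 for Klk10 (a serine protease gene), -5.53 for Pramel6 (of a family with many copies), -5.14 for Adrb1 (an adrenergic receptor gene) and -5.05 for Fcgr2b (an Fc receptor gene). Pramel6 had P10 means of 37.1 in EMM and 52.8 in 2i/LIF, and at P20 3.72, 4.48 and 6.53 against 279.6, 187 and 512. Gm28439, a pseudogene that overlaps another tested gene, had P10 means of 4639 in EMM and 2178 in 2i/LIF, and at P20 77.2, 128 and 223 in EMM against 8332, 1103 and 1156 in 2i/LIF. Klk10 and Fcgr2b were higher in EMM at P10 (3.04 and 3.35) and lower at P20 (-2.61 and -1.70). Adrb1 was not called at P20 (1.18).

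Among members of the lists named in the text, Lef1 (5.60) and Lefty1 (3.90) were lower in EMM at P10 and higher at P20, as was Egr1, and Bcl3 (-2.43) was higher at P10 and lower at P20.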

How the results depend on the processing

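The numbers of genes called at P20 stayed within 1.5 times the reported ones under every other scaling, filter and tool run, between 2314 and 2770 higher and between 1344 and 1717 lower. Without a fold threshold they were 4127 higher and 3677 lower, and by a test against a log2 fold change of 1 they were 1592 and 861. For the change between passages the same settings gave 5190 and 773. With each library left out in turn, the counts ran from 2339 to 2476 higher, from 1381 to 1481 lower and from 2292 to 3024 for the change between passages. The median was -0.39 on chromosome 6 and -0.34 on chromosome 8 with TMM factors taken without these chromosomes, and 0.00 and -0.10 when all genes with 1 count entered, a setting that adds genes with hardly any counts. Left-out libraries gave -0.35 to -0.32 and -0.32 to -0.28.

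The replicate numbers did not pair the libraries: deviations from the group means correlated at -0.03 to -0.02 between libraries of the same number, and every different pairing lay between 0.00 and 0.03. With the replicate number as a block, 2546 genes were higher, 1483 lower and 2601 changed between passages, and 3984 of the 4068 called genes were the same.

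Of 2128 values for 142 named genes, 2103 kept their direction and their side of the threshold, 21 lost the call, 1 gained it and 3 turned. The last were of Pou5f1, at -0.04 with TMM factors without chromosomes 6 and 8, and between -0.02 and 0.04 with a 2i/LIF library left out. Calls were lost for Klf4, Tbx3, Ndufb7, Bcl3, mt-Nd6, Slc7a11, Col3a1, Fgf8 and Gm5128. Of 540 medians of lists, 515 moved by less than the spread between libraries. The median of the germline genes turned to -0.09 without 2i/LIF replicate 2 and ran up to 0.56 without replicate 3, and that of the mitochondrial genome turned to -0.16 without 2i/LIF replicate 1 and ran up to 0.57. Where not stated, the cause was not tested. Counts near 0 in the shallowest library limit the folds of silent genes. Of the named genes 24 overlap another tested gene, and whether strand was used in counting is not given in the sources used here.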
